A study of Mus musculus with 6 samples.

Results

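Intercalated cells are the acid-secreting and base-secreting cells of the renal connecting tubule and collecting duct, and the genes described here are 10 of their acid-base genes: the anion exchanger genes Slc4a1, Slc4a9 and Slc26a4, the transcription factor gene Foxi1, the proton pump subunit genes Atp6v1b1, Atp6v1g3, Atp6v0d2 and Atp6v0a4, and the ammonia channel genes Rhbg and Rhcg. They were chosen by gene symbol. All 10 were found among the 54838 gene identifiers, and all 10 were among the 17086 genes with enough counts to be tested. Glomeruli, the kidney's filters, had been isolated from 3-week-old mice and their RNA sequenced, in 3 libraries labelled CTRL (wild type, animals 157, 162 and 163) and 3 labelled KO (bPIX -/-, animals 146, 147 and 148, with the loss restricted to podocytes per the design text). Podocytes are the epithelial cells that wrap the glomerular capillaries, and bPIX is encoded by Arhgef7, an exchange factor for Cdc42 and Rac1. No Cre driver or strain is named in the labels. File names carry the opposite group to the sample label in every library. Groups follow the labels, and with the file names every sign below would be reversed.

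In the type A intercalated cell, cytosolic carbonic anhydrase supplies a proton and a bicarbonate ion. The V-ATPase, a rotary pump with a membrane V0 part and a cytosolic V1 part, moves the proton into the urine, while the exchanger AE1 (Slc4a1) returns the bicarbonate to the blood. The type B cell works the other way round, with pendrin (Slc26a4) passing bicarbonate into the urine and AE4 (Slc4a9) on the blood side. FOXI1 is the transcription factor required for intercalated cell identity. These cells lie in the tubule, outside the glomerulus.

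Values of all 10 genes were lower in the KO libraries, but none passed the test. Mean levels in KO were 64.7% (Slc26a4) to 77.5% (Atp6v1b1) of those in CTRL. The log2 fold changes, KO minus CTRL, ran from -0.63 for Slc26a4 to -0.37 for Atp6v1b1, with a median of -0.48 against -0.006 over all tested genes. With edgeR 0 of the 10 genes had a Benjamini-Hochberg adjusted p below 0.05, where 1.01% of all tested genes were called in either direction and 0.421% as lower. At an unadjusted p below 0.05, 7 of the 10 were lower, against 11.8% of all tested genes. A negative sign, found in 10 of 10, was held by 50.7% of all tested genes. In CPM, counts scaled to a common library size with TMM factors, every KO library lay below every CTRL library for 10 of 10 genes, against 19.6% of all tested genes. With scaling by library totals alone this held for 6 of 10, against 11.2% of tested genes, and Slc4a1, Slc26a4, Foxi1 and Atp6v1b1 then overlapped. The 10 genes are markers of the same cell type and varied together over the libraries, so they are not 10 independent observations.

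**Figure D1:**
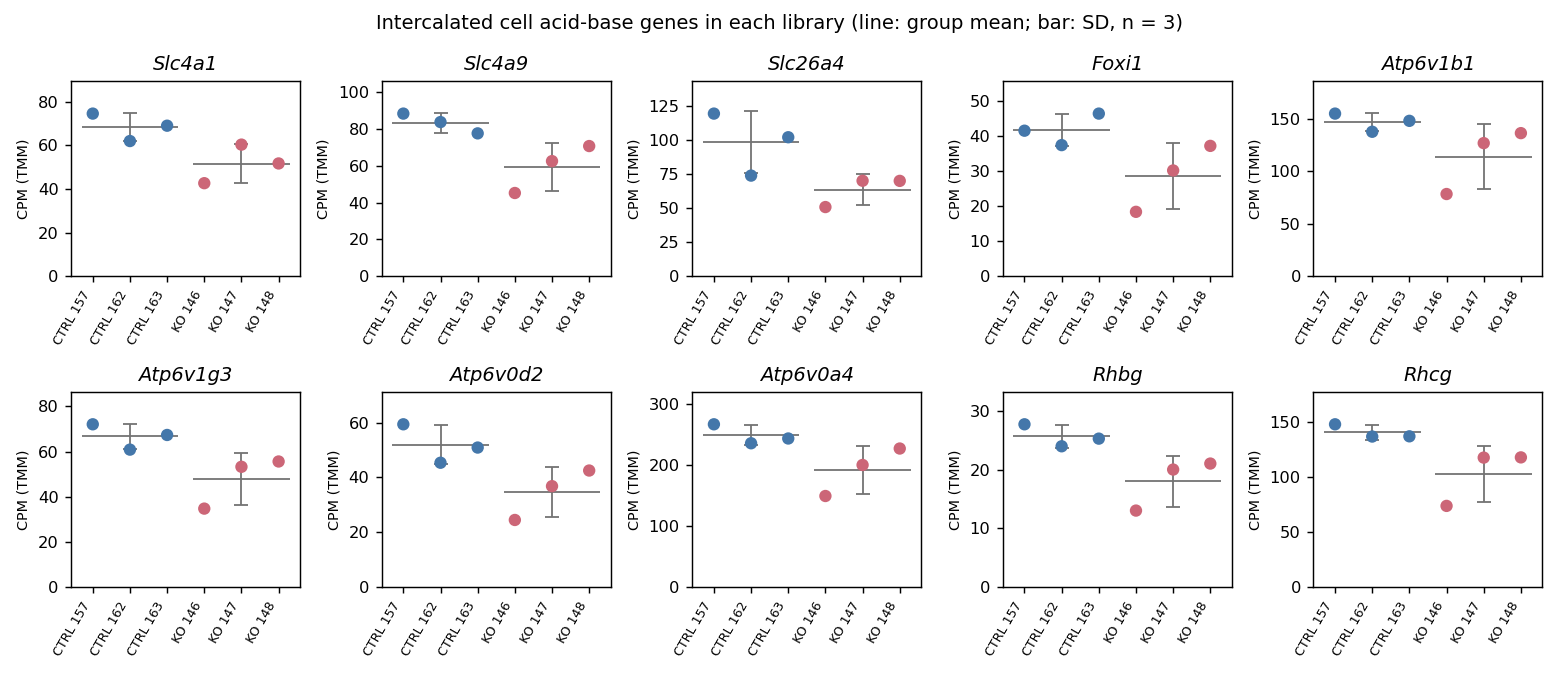
CPM (vertical axes, linear, from 0) of the 10 intercalated cell acid-base genes in each of the 6 libraries (horizontal axes), with the group mean as a line and the SD (n = 3) as a bar. In every panel KO 146 is the lowest library and the 3 KO libraries lie below the 3 CTRL libraries.

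Within the KO group 1 library stood clear of the others. KO 146 was the lowest of the 6 libraries for 10 of 10 genes, while KO 147 was below KO 148 for 8 of 10, with Slc4a1 and Slc26a4 the other way round. The median log2 deviation of the 10 genes from their CTRL means was -0.94 in KO 146, -0.34 in KO 147 and -0.26 in KO 148, and 0.11, -0.12 and -0.01 in CTRL 157, 162 and 163. Without KO 146 all 10 stayed negative with a median of -0.31, and edgeR called 4 of them lower: Slc4a9 (log2 fold change -0.33, adjusted p = 0.023), Rhcg (-0.26, 0.024), Rhbg (-0.33, 0.0297) and Atp6v1g3 (-0.30, 0.0303). In that fit 6.62% of all tested genes were called lower. Without KO 148, edgeR called Slc4a9 and Atp6v0d2 (-0.63 and -0.77, adjusted p = 0.0388 and 0.0463), with 5.4% of tested genes called lower. DESeq2 called Slc26a4 alone (-0.64, adjusted p = 0.0409), with 4.56% of tested genes called lower. With any other single library left out edgeR called none of the 10, and neither did limma-voom on all libraries.

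Among the anion exchangers, Slc4a1 (ENSMUSG00000006574, chromosome 11, 102348824 to 102366203, minus strand, GRCm38) stood at 74.5, 61.9 and 69.0 CPM in CTRL 157, 162 and 163 and at 42.7, 60.3 and 51.7 CPM in KO 146, 147 and 148. The nearest libraries of the groups, CTRL 162 and KO 147, were close together. The group levels were 68.5 ± 6.30 and 51.5 ± 8.82 CPM (SD, n = 3 each), with a log2 fold change of -0.41 (SE 0.14, edgeR adjusted p = 0.119). Red cells also carry AE1. The haemoglobin gene Hbb-bs stood at 318, 330 and 54.2 CPM in CTRL 157, 162 and 163 and at 290, 194 and 128 CPM in KO 146, 147 and 148. CTRL 163 was the lowest library in haemoglobin and the second of the 3 CTRL libraries in Slc4a1, and the part of red cells in the Slc4a1 values was not tested. Of 9 tested erythroid markers 0 were called by edgeR or limma-voom and 0 had an unadjusted p below 0.05. DESeq2, with no filter on low counts, called 0 of 11. Of the 9, 6 had a negative sign and the median was -0.04, or 0.10 with library totals. This median depended on single CTRL libraries. It was -0.518 with 6 negative without CTRL 163, and 0.199 with 1 negative without CTRL 162. The summed level of the erythroid list was 146 to 768 CPM in CTRL and 315 to 607 CPM in KO.

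Slc26a4 (ENSMUSG00000020651, chromosome 12, 31519827 to 31559969, minus strand) showed the largest difference of the 10 and also the widest spread within CTRL. It stood at 119, 73.7 and 102 CPM in CTRL 157, 162 and 163 and at 50.7, 70.0 and 69.9 CPM in KO 146, 147 and 148. CTRL 162 lay closer to KO 147 and KO 148 than to the other CTRL libraries. The log2 fold change was -0.63 (SE 0.20, edgeR adjusted p = 0.107), and it was -0.80 without CTRL 162. Slc4a9 (ENSMUSG00000024485, chromosome 18, 36528147 to 36556273, plus strand) stood at 88.2, 83.6 and 77.5 CPM in CTRL and at 45.2, 62.5 and 70.6 CPM in KO, in the same order of animals. The groups did not overlap, and KO 148 came nearest to CTRL. Its log2 fold change was -0.48 (SE 0.16, edgeR adjusted p = 0.116).

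The groups overlapped in the log2 ratios among the type A and type B exchanger genes. Per kilobase of exon, the log2 ratio of Slc4a1 to Slc4a9 was 0.11 ± 0.14 in CTRL and 0.19 ± 0.22 in KO (SD, n = 3 each, exact two-sided permutation p = 0.6). The log2 ratio of Slc4a1 to Slc26a4 was -1.15 ± 0.22 and -0.95 ± 0.12 (exact permutation p = 0.2), and that of Slc26a4 to Slc4a9 was 1.26 ± 0.34 and 1.15 ± 0.10 (exact permutation p = 0.6). Such ratios were compared for 8 gene pairs, the others being given below, with adjusted p values of 0.4 to 0.6. With 3 libraries against 3 the smallest p possible is 0.1.

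Foxi1 (ENSMUSG00000047861, chromosome 11, 34204338 to 34208089, minus strand) stood at 41.6, 37.5 and 46.4 CPM in CTRL 157, 162 and 163 and at 18.4, 30.2 and 37.2 CPM in KO 146, 147 and 148. KO 148 nearly reached CTRL 162, while KO 146 was the lowest by a wide margin. The levels were 41.8 ± 4.50 and 28.6 ± 9.51 CPM (SD, n = 3 each), with a log2 fold change of -0.55 (SE 0.25, edgeR adjusted p = 0.193).

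The 4 V-ATPase genes encode isoforms that are enriched in intercalated cells, each with a more widely expressed paralog. ATP6V1B1 is the nucleotide-binding B subunit and ATP6V1G3 a stalk subunit of V1, ATP6V0A4 is the membrane a subunit of the proton path, and ATP6V0D2 joins V0 to the central stalk. FOXI1 is known to activate several genes of intercalated cells, so the upstream windows of the 10 genes were searched for a forkhead core. The core was written as the letters TGTTTAC, or with the ending replaced as the letters TGTTTAT, also as the letters TGTTTGC and lastly as the letters TGTTTGT, and looked for on both strands in the 250 bases before the RefSeq start (GRCm38.p6). Of the 10 genes 6 were in the promoter table, and 2 of these 6 held a match, Atp6v1g3 and Atp6v1b1, where 15.7% of all 32851 windows held one. A match is a run of letters and not a binding site. Both windows are shown because they hold the match, in capitals, 5′ to 3′ on the plus strand, which is the strand of both genes. The window of Atp6v1g3 is chr1:138273488-138273737, with the opposite-strand match ACAAACA starting 67 bases before the start. The window of Atp6v1b1 is chr6:83742767-83742989, shortened where the GENCODE gene begins, with TGTTTAC starting 98 bases before the RefSeq start.
Atp6v1g3: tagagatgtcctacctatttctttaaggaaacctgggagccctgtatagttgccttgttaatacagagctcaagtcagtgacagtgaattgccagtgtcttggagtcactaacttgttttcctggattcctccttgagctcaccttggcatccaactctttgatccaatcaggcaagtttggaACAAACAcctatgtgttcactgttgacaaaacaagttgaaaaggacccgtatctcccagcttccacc
Atp6v1b1: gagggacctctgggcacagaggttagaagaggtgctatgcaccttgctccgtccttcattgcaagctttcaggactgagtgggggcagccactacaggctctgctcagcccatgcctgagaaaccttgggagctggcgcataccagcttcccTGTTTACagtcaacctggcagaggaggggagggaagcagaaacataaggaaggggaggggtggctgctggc

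Atp6v1b1 (ENSMUSG00000006269, chromosome 6, 83742990 to 83758855, plus strand) stood at 155, 138 and 148 CPM in CTRL 157, 162 and 163 and at 78.4, 127 and 136 CPM in KO 146, 147 and 148. KO 148 was at 99.0% of the lowest CTRL library, so the separation of the groups was slight. The log2 fold change of -0.37 (SE 0.20, edgeR adjusted p = 0.272) was -0.17 without KO 146. Atp6v1g3 (ENSMUSG00000026394, chromosome 1, 138273738 to 138289462, plus strand) stood at 72.1, 60.9 and 67.4 CPM in CTRL and at 34.8, 53.3 and 55.6 CPM in KO. Here the highest KO library was at 91.4% of the lowest CTRL library, and the log2 fold change was -0.48 (SE 0.18, edgeR adjusted p = 0.143).

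Of the V0 subunits, Atp6v0a4 (ENSMUSG00000038600, chromosome 6, 38048483 to 38124586, minus strand) had the highest CPM of the 10 genes, at 266, 235 and 243 CPM in CTRL 157, 162 and 163 and at 149, 200 and 227 CPM in KO 146, 147 and 148. Its log2 fold change was -0.37 (SE 0.16, edgeR adjusted p = 0.182). Of its exonic bases 1.25% overlap Tmem213 on the opposite strand and 5.21% overlap D630045J12Rik on the same strand. Atp6v0d2 (ENSMUSG00000028238, chromosome 4, 19876841 to 19922605, minus strand) stood at 59.4, 45.4 and 50.9 CPM in CTRL and at 24.5, 36.8 and 42.5 CPM in KO. The groups did not overlap, and the log2 fold change was -0.59 (SE 0.21, edgeR adjusted p = 0.129). Osteoclasts and some macrophages also express this isoform. Of 10 macrophage markers 0 were called by edgeR, 1 was called higher by DESeq2 and 1 had an unadjusted p below 0.05. The last was Mrc1, which was higher in KO (log2 fold change 1.73, edgeR adjusted p = 0.0755). It stood at 6.85 to 8.27 CPM in CTRL and 13.5 to 40.6 CPM in KO. Of the 10 markers 5 were negative and the median was -0.05, or 0.07 with library totals. Their summed level was 86.2 to 98.7 CPM in CTRL and 85.3 to 123 CPM in KO, with Csf1r at 24.3 to 28.1 CPM and 20.1 to 24.7 CPM.

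Each isoform was also set against a widely expressed paralog in the same library. Per kilobase, the log2 ratio of Atp6v1b1 to Atp6v1b2 was -1.27 ± 0.11 in CTRL and -1.17 ± 0.18 in KO (SD, n = 3 each, exact permutation p = 0.4), since Atp6v1b2 was lower in KO as well (log2 fold change -0.50). The ratio of Atp6v0d2 to Atp6v0d1 was -1.91, -2.16 and -2.02 in CTRL 157, 162 and 163 against -2.75, -2.43 and -2.26 in KO 146, 147 and 148, with no overlap (exact permutation p = 0.1). The ratio of Atp6v1g3 to Atp6v1g1 was -2.35 ± 0.10 in CTRL and -2.69 ± 0.12 in KO (exact permutation p = 0.1). The ratio of Atp6v0a4 to Atp6v0a1 was 2.62 ± 0.15 and 2.28 ± 0.40 (exact permutation p = 0.2), with Atp6v0a4 the only isoform of the 4 above its paralog. None of these could pass, with or without adjustment over the 8 pairs, because 0.1 is the smallest p this test can give here. The Atp6v0d2 and Atp6v1g3 ratios were at that smallest value, with every KO library below every CTRL library. Whether the ratios differ from each other was not tested.

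**Figure D2:**
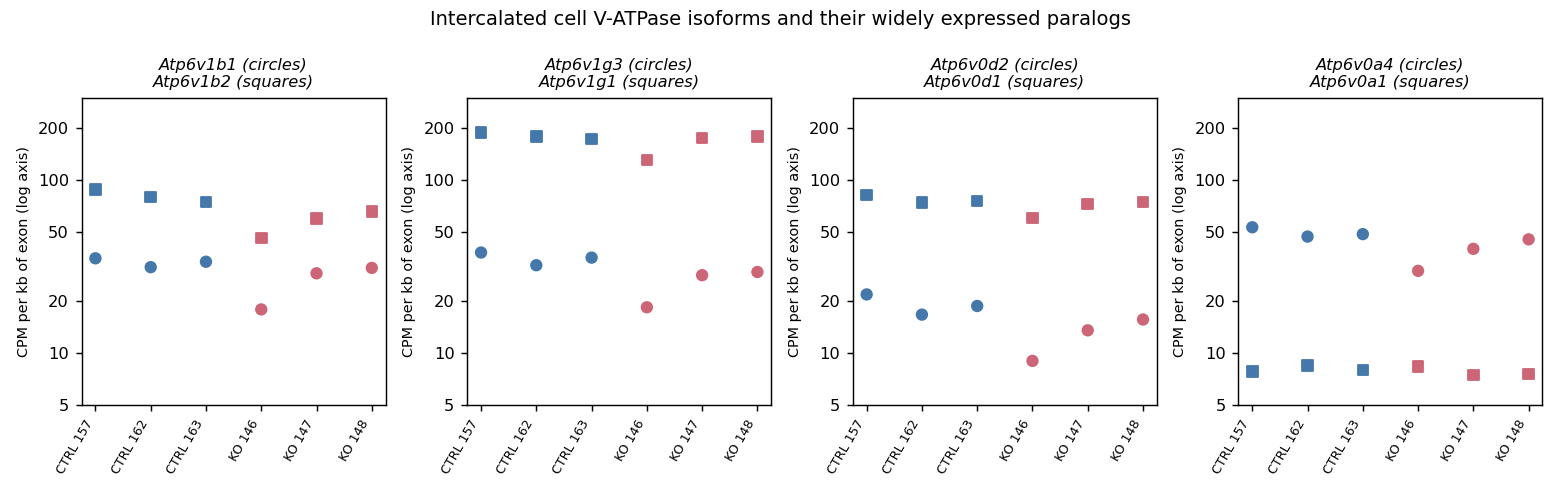
CPM per kilobase of exon (vertical axes, logarithmic) of the 4 intercalated cell V-ATPase isoforms (circles) and 1 widely expressed paralog of each (squares) in the 6 libraries (blue CTRL, red KO). Atp6v0a4 lies above its paralog in every library, and the other 3 isoforms lie below theirs.

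Rhcg and Rhbg belong to the Rh glycoprotein family and carry ammonia across the apical and basolateral membranes. Rhcg (ENSMUSG00000030549, chromosome 7, 79593363 to 79617657, minus strand) stood at 148, 137 and 137 CPM in CTRL 157, 162 and 163 and at 73.6, 117 and 118 CPM in KO 146, 147 and 148. KO 147 and KO 148 were alike, and the highest KO library was at 86.2% of the lowest CTRL library, the widest gap of the 10 genes. The log2 fold change was -0.45 (SE 0.18, edgeR adjusted p = 0.165). Rhbg (ENSMUSG00000104445, chromosome 3, 88242874 to 88254709, minus strand) was the lowest of the 10 in CPM, at 27.7, 24.0 and 25.3 CPM in CTRL and at 13.0 to 21.0 CPM in KO, lowest in KO 146. Its pattern over the libraries was close to that of Rhcg, with a log2 fold change of -0.51 (SE 0.19, edgeR adjusted p = 0.131). Of its exonic bases 61.44% also belong to the annotated gene Gm38392 on the same strand, which had 0 or 1 counts per library, and reads that fall in both genes may be missing from Rhbg as ambiguous. The log2 ratio of Rhcg to Rhbg per kilobase would then be too high, and stood at 2.25 ± 0.05 in CTRL and 2.31 ± 0.04 in KO (exact permutation p = 0.3).

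Per kilobase of exon, Rhcg (62.8 ± 2.87 CPM per kb in CTRL, SD, n = 3) and Atp6v0a4 (49.9 ± 3.25) ranked the first and the second of the 10 genes in all 6 libraries. Next in CTRL came Atp6v1g3 at 35.4, Atp6v1b1 at 33.5 and Slc26a4 at 31.6, whose ranges over the CTRL libraries overlapped. Atp6v0d2 at 19.1 and Foxi1 at 17.7 also overlapped, as did neighbours among Slc4a1, Rhbg at 13.2 and Slc4a9 at 13.0. In KO the means were 46.1 for Rhcg, 38.6 for Atp6v0a4 and 9.28 for Slc4a9. Foxi1, although a transcription factor gene, was at a per-length level near that of the transporter gene Atp6v0d2. In CTRL Foxi1 lay above Slc4a1, at 15.9 to 19.7 against 12.7 to 15.2 CPM per kb, while their ranges over all 6 libraries overlapped. The length used was that of all annotated exons of a gene merged, so the order of genes depends on the annotation. The value of Rhbg may be too low because of the exonic bases it shares with Gm38392.

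Other genes of intercalated cells showed the same direction with exceptions. Of 21 tested, 18 had a negative log2 fold change, 0 were called by edgeR, 8 were lower and 2 higher at an unadjusted p below 0.05, and the median was -0.33. DESeq2 called 2 of these genes higher and 1 lower, limma-voom called 0, and over all tested genes 10.4% were called higher by DESeq2 and 17.5% were higher at an unadjusted p below 0.05. The counts of higher genes in this list were therefore no larger than the background, and with library totals 16 were negative. The water channel gene Aqp6 stood at 98.6 to 101 CPM in CTRL and 54.7 to 88.6 CPM in KO (-0.50), the cytosolic carbonic anhydrase gene Car2 had a value of -0.33, and Cftr, a chloride channel gene, had -0.83 (SE 0.23, edgeR adjusted p = 0.082). The exceptions were Slc26a7, an anion exchanger gene, at 3.34 to 3.48 CPM in CTRL and 4.53 to 11.7 CPM in KO (log2 fold change 1.2, edgeR adjusted p = 0.0824), and Adgrf5, an adhesion receptor gene also expressed by endothelium, at 110 to 115 CPM and 145 to 404 CPM (1.15, adjusted p = 0.102). The proton-potassium pump gene Atp12a was positive as well (0.70, adjusted p = 0.48). Both Slc26a7 and Adgrf5 were highest in KO 146. There the endothelial marker Pecam1 stood at 358 CPM against 57.1 to 66.9 CPM in CTRL. The podocyte marker Nphs1 (479 against 45.1 to 58.0 CPM) and the mesangial marker Pdgfrb (252 against 26.2 to 30.9 CPM) were also high there. The part of endothelial or other glomerular RNA in the values of Slc26a7 and Adgrf5 was not tested.

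Among 20 tested V-ATPase subunit genes outside the 10, 18 were negative with a median of -0.18, and 14 were negative with library totals. DESeq2, with no filter on low counts, called 1 of 21 in each direction. Of the 20, none was called by edgeR or limma-voom, and 1 was higher and 4 lower at an unadjusted p below 0.05. Those with the smallest p were Tcirg1, the a3 subunit of osteoclasts and macrophages (0.52, edgeR adjusted p = 0.0875), Atp6v1b2 (-0.50, 0.099) and Atp6v1h (-0.37, 0.104). Of 12 tested relatives in the SLC4, SLC26 and Rh families 4 were negative and the median was 0.12. None of the 12 was called by edgeR or limma-voom, and 3 were higher and 1 lower at an unadjusted p below 0.05. DESeq2, with no filter on low counts, called 1 of 17 higher. Slc26a10 (2.28, edgeR adjusted p = 0.0755), Slc4a10 (1.24, 0.15) and Slc4a3 (0.40, 0.139) had positive values, while Slc4a4, the bicarbonate cotransporter of the proximal tubule, had -0.52. The level of Slc4a10 was low, at 0.226 to 0.630 CPM in CTRL and 0.506 to 1.35 CPM in KO, and its groups overlapped. The red cell relative Rhag was at or below 0.0339 CPM. Of 9 proximal genes of acid handling and ammonia production 9 were negative with a median of -0.37, of which edgeR called 0, DESeq2 called 2 and 3 had an unadjusted p below 0.05, with the proton exchanger Slc9a3 at -0.62 (edgeR adjusted p = 0.077), Slc1a1 at -0.61 (0.0937) and Car4 at -0.49 (0.107).

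**Figure D3:**
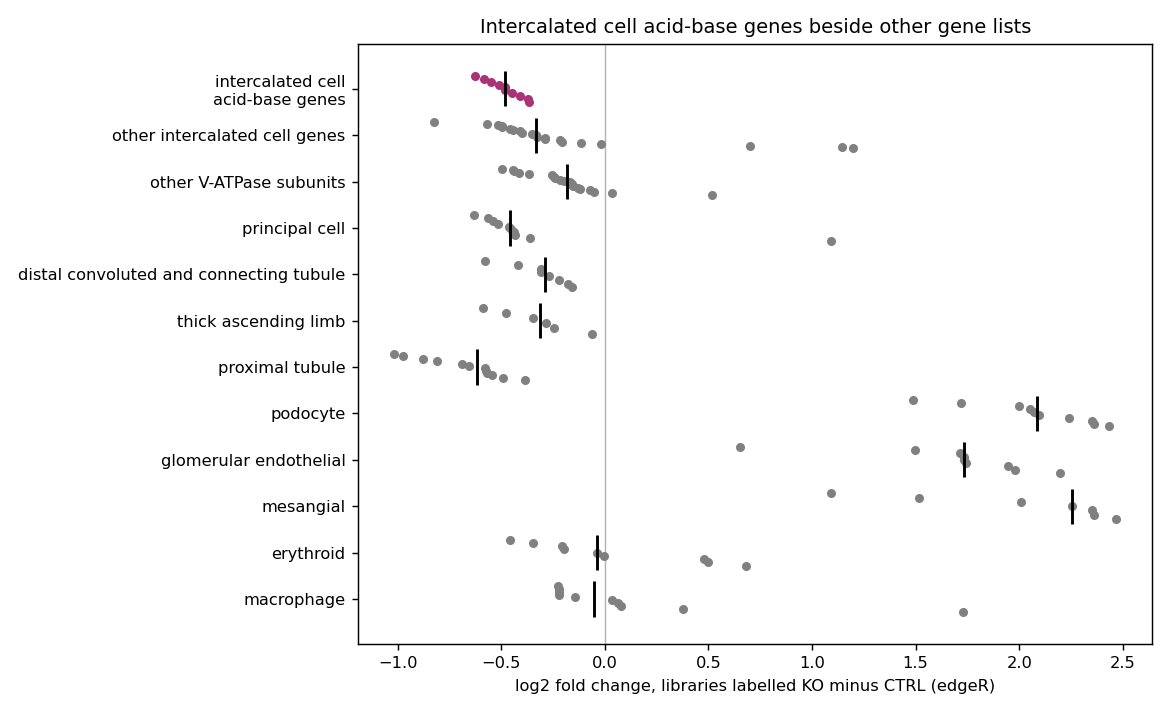
Log2 fold change, KO minus CTRL (horizontal axis), of every tested gene in 12 lists (rows, 1 point per gene), with the list median as a black line. The 10 acid-base genes lie between -0.63 and -0.37 and overlap the principal cell and proximal tubule lists, while podocyte, endothelial and mesangial genes lie above 0.

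Tubule genes of other segments also had lower values in KO, and glomerular genes higher ones. Of 10 tested principal cell markers, the neighbours of intercalated cells in the collecting duct, 9 were negative with a median of -0.46. In that list edgeR called 0 of the 10, and 7 were lower and 1 higher at an unadjusted p below 0.05. DESeq2, with no filter on low counts, called 1 of 11 higher and 2 lower. Aqp3 was at -0.63 (edgeR adjusted p = 0.0594), Aqp2 at -0.52 (0.0956) and Gata3, also in the mesangial list, at 1.09 (0.0793). All 8 markers of the distal convoluted and connecting tubule were negative with a median of -0.29, with Slc12a3 at -0.31. So were all 6 of the thick ascending limb (5 with library totals), with a median of -0.31 and Slc12a1 at -0.28. Of these, edgeR called 0 in either list, DESeq2 called 0 and 1, and 0 and 1 had an unadjusted p below 0.05. All 12 proximal tubule markers were negative with a median of -0.62, Lrp2 at -0.57 and 1 called, Slc7a13 (-0.97, edgeR adjusted p = 0.0332). Of these 12, 10 were lower at an unadjusted p below 0.05, and 8 were called lower by DESeq2, 5 by edgeR with no filter on low counts, 9 without KO 146 and 5 without KO 148. Leaving out KO 147 or a CTRL library gave 0 calls in this list. All 10 podocyte, 9 endothelial and 7 mesangial markers were positive, with medians of 2.08, 1.74 and 2.25, Nphs1 at 2.35 and Pdgfrb at 2.35. In these lists edgeR called 0, while 10, 8 and 7 had an unadjusted p below 0.05 and DESeq2 called 10, 8 and 6. Without KO 146 edgeR called 10, 8 and 7 of them, with 10.5% of all tested genes called higher, and 1 endothelial marker was then negative. The summed podocyte level was 846 to 1034 CPM in CTRL and 7535, 3141 and 2023 CPM in KO 146, 147 and 148, so the library lowest in intercalated cell genes was the highest in podocyte genes. The summed proximal tubule level was 21780 to 23100 CPM and 9351, 14490 and 16510 CPM in the same order. The part of tubule and glomerulus content in the values of the 10 genes was not tested. In such bulk RNA, fewer intercalated cells and less RNA per cell cannot be told apart.

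Relative to other lists within a library, the sign of the difference depended on the list. The mean log2 CPM of the 10 genes minus that of the principal cell list was 1.44, 1.30 and 1.52 in CTRL 157, 162 and 163 against 0.95, 1.30 and 1.53 in KO 146, 147 and 148, and the groups overlapped. The KO minus CTRL difference of this measure was -0.16, and -0.02 when Gata3 was left out of the principal cell list, a choice made after its value was seen. Without KO 146 it was -0.006 with the full list. Relative to the proximal tubule list the difference was 0.21, at -3.46 to -3.34 in CTRL and -3.25 to -3.13 in KO, with no overlap. Relative to the list of other intercalated cell genes it was -0.31, at 1.35 to 1.53 in CTRL and 0.998 to 1.26 in KO, again with no overlap, where that list includes Slc26a7 and Adgrf5. On the same scale the mean of the 10 genes alone differed by -0.51.

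**Figure D4:**
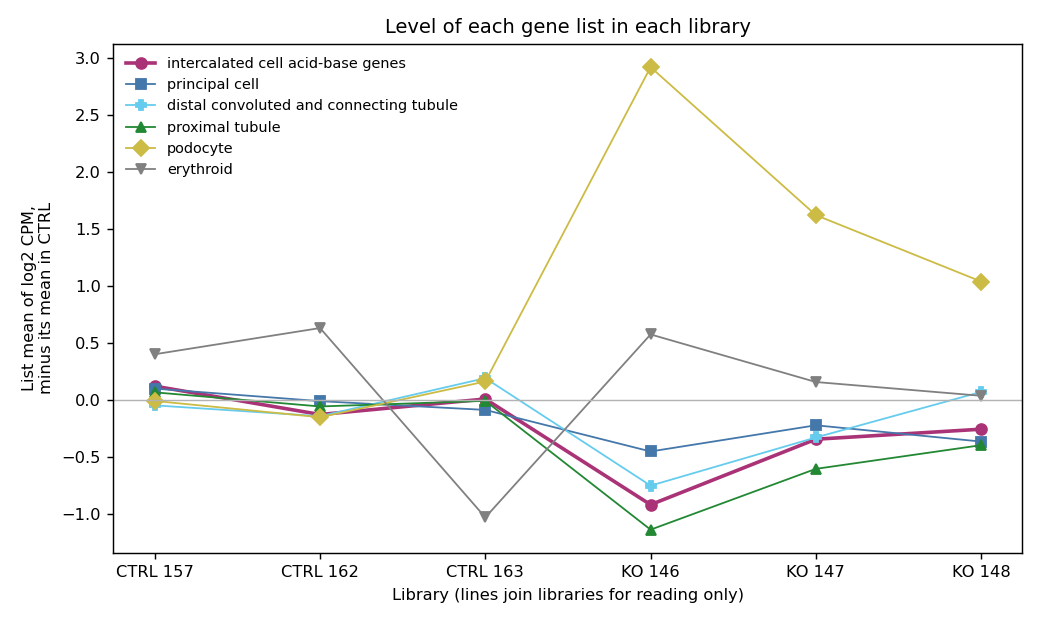
Mean log2 CPM of 6 gene lists in each library (horizontal axis), each minus its own mean over the 3 CTRL libraries (vertical axis). The acid-base genes follow the other tubule lists, with the lowest value in KO 146, while the podocyte list runs the opposite way and the erythroid list is lowest in CTRL 163.

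Among 10860 protein-coding genes whose mean CPM reached 5, those whose log2 CPM followed the mean of the 10 genes most closely over the 6 libraries were Nudt6, Ndufv1, Nr2f6, Cep19, Treh, Id2, Egfr, Galnt3, Hint2 and Anapc7, with Pearson r of 0.997 to 0.998. The 6 points are the same libraries for every gene, and tubule and glomerular lists differ between them in level. None of these 10 genes was in a list used here. Of the list genes the closest were Atp6v1c2, a V-ATPase subunit gene, at rank 16, the intercalated cell receptor gene Oxgr1 at rank 17, the principal cell channel gene Scnn1g at rank 22 and the proximal tubule receptor gene Lrp2 at rank 33, so closeness did not single out intercalated cell genes.

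Gene counts totalled 39841396 to 51917945 per library, and the 10 genes had 769 to 11460 counts each per library, so the counting error of the smallest count was 3.61%, below the spread between libraries. The targeted gene Arhgef7 stood at 88.4 to 94.0 CPM in CTRL and at 133, 89.5 and 85.8 CPM in KO 146, 147 and 148. Its log2 fold change was 0.17 (edgeR adjusted p = 0.544). Only KO 146, the library highest in podocyte genes, lay above CTRL. A podocyte-only loss leaves Arhgef7 in other cells, so these values do not settle the labels. Library KO 146 stood apart from the others on the first principal component, at 82.7 against -42.3 to 26.1.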

How the data were processed

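The authors deposited raw read counts per mouse Ensembl gene, 1 file per mouse. Per the submitters' processing notes the tools were HTSeq 0.11.1, STAR 2.6.0, DESeq2 (version not listed) and fastp 0.19.5. The notes list GRCh37, a human build, so the alignment build is uncertain, and neither strand setting nor annotation release was found in the labels or headers. Lines that name no gene were left out. Reads aligned to more than 1 place made up 22.51% to 29.63% of records and are absent from gene counts. Symbols, positions and exon lengths came from GENCODE M21 (GRCm38), which matched 54809 identifiers and left 29 unnamed.

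Counts were tested in R 4.3.3 with edgeR 4.0.16 (TMM, filterByExpr with a minimum count of 10, robust quasi-likelihood F test, KO against CTRL, no covariate), with Benjamini-Hochberg adjustment over 17086 genes and calls at an adjusted p below 0.05. The script was tested on simulated data with the same dispersion for every gene and no library set apart, unlike the KO libraries here. SE was taken as the size of the log2 fold change over the root of F. List means used log2 CPM with a prior count of 2. Alternatives were RLE size factors, library totals, no filter, DESeq2 1.42.0, limma-voom (limma 3.58.1) and leaving out each library. No library pair within a group agreed within sampling noise (chi-square per degree of freedom of at least 16.7). This value was 16.7 to 18.4 for the CTRL pairs and 27.1 for KO 147 with KO 148. For KO 146 it was 176 with KO 147 and 299 with KO 148. Each library is 1 animal per the labels.

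The 10 genes and all lists were chosen with earlier results of these data known. Besides the 10, the rule named the targeted gene, the called members and the 3 of smallest p in each list, 1 defining marker per cell type, and the 10 genes of most similar profile. From the cell type lists the text names fewer genes than the rule. Aqp6, Car2, Atp12a, Slc4a4, Rhag, Oxgr1, Atp6v1c2, Scnn1g and the paralogs Atp6v1g1, Atp6v0d1 and Atp6v0a1 were added after their values were seen.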

Additional observations from a re-analysis of the deposited data

How the results depend on the processing

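All 10 genes kept a negative log2 fold change under all 11 alternatives, with a median between -0.619 (without KO 148) and -0.31 (without KO 146). With library totals the median of the 10 was -0.36 while that of all genes moved from -0.006 to 0.131. The number of the 10 genes called was 0 in the edgeR fit to all libraries, 1 with DESeq2 and 0 to 4 with 1 library left out. Over all tested genes 173 were called (101 higher, 72 lower), 960 without a filter on low counts, 2805 with DESeq2 and 2 to 3211 with 1 library left out (3211 without KO 148, 2974 without KO 146, 2, 3 and 10 without CTRL 157, 162 and 163, 2 without KO 147). With library totals 114 of 164 calls were higher. At an unadjusted p below 0.05, 7 of the 10 genes were lower in the main fit. The number was 0 and 1 without CTRL 157 and CTRL 163, and 9 and 10 without KO 146 and KO 148. The share of all tested genes at this threshold was not counted for the fits with 1 library left out. The difference from the principal cell list ran from -0.295 to -0.00647 with 1 library left out, and was -0.151 with a prior count of 0.5. No paired analysis was possible because the labels give the groups no shared animal or batch number. The counting error of these genes, at most 3.61%, was below the spread between libraries.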
